A study of Mus musculus with 2 samples.

Results

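Smooth muscle-rich spots are the spots with brain transcripts that ranked highest by the share of captured RNA from 3 genes of vascular smooth muscle. Some of these spots lay beside or within tumour, and the 3 genes were a small share of the RNA in all of them. The name refers to these genes and does not identify the cells of each spot. The tissue is mouse cerebellum carrying breast tumour, and each of the 2 sections came from a separate label, HP-F1 +cre (section 1) and HP-B6 +cre (section 2). HP stands for mammary tumour organoids with the HER2 V777L and PIK3CA H1047R mutations, and in the study's methods luciferase-marked organoids were injected into the cerebellum of B6 mice aged 5 months. The labels give both sections the genotype HP, B6 organoids and no treatment, and do not explain the F1 and B6 of the titles, so the sections are taken as 1 condition, with no tumour-free section and no second time point. RNA was read with probes from 5 µm formalin-fixed sections on an array of barcoded spots (Visium CytAssist), and the unit is the unique molecular identifier (UMI), 1 captured probe molecule. Each spot pools the RNA of whatever cells lie beneath it, whole or in part, so fewer cells of a type and less RNA per cell cannot be told apart.

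Members were chosen by 3 measured genes, Acta2, Myh11 and Tagln. Eligible spots lay under tissue, had at least 2000 UMIs and held at least 1000 counts per 1000000 UMIs (CPM) of the myelin gene Mbp and the synaptic gene Snap25 together, a floor that keeps spots with brain RNA, also those that hold tumour RNA as well. Of these, the 3% with the highest summed CPM of the 3 genes were taken in each section. This gave 70 of 2330 eligible spots in section 1 and 89 of 2955 in section 2, or 159 members of 7423 spots under tissue. The other 2260 and 2866 eligible spots served for comparison. The sections share 3096 spot barcodes because both use the same array layout, and 0 of the member barcodes occur in both. Because the 3 genes and the 2 brain genes chose the spots, their values are descriptions and carry no test.

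Vascular smooth muscle cells wrap arteries, arterioles and, more thinly, veins, and set the width of the vessel. They contract through actin filaments built with alpha-actin (Acta2) and a smooth muscle myosin heavy chain (Myh11), while Tagln encodes transgelin, an actin-binding protein of the same filaments. The transcription factor SRF and its partner myocardin switch these genes on. Acta2 and Tagln are also made by myofibroblasts, the contractile fibroblasts of wounds and tumours, and Myh11 is the more restricted of the 3.

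The selection rested on few molecules. A member held a median of 2.5 UMIs of the 3 genes together in section 1 and 4 in section 2, with a highest value of 30 and 29. Members with 1 or 2 such UMIs numbered 35 of 70 and 28 of 89, while 23 and 35 members had 5 or more. All 3 genes were found together in 2 and 7 members, 2 genes in 38 and 44, and a single gene in 30 and 38. The lowest member of section 1 stood at 326.3 CPM, from 1 UMI in a spot of 3065, and the first spot left out stood at 325.3 CPM, from 4 UMIs. In section 2 the lowest member held 302.6 CPM from 3 UMIs and the first spot outside 300.6 CPM from 2. Members on either side of this line hardly differ. Among other spots, 77.4% and 75.0% held no UMI of the 3 genes. The median total was 5603 and 8229 UMIs for members and 8650 and 10698 for other spots. By this median, members were shallower in both sections.

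Summed over spots, Tagln read 218 CPM in the members of section 1 and 256 in section 2, with 17.3 and 19.5 in the other spots. Acta2 read 230.2 and 160.1 CPM in members with 24.6 and 12.7 in the other spots. Myh11 read 18.3 and 29.9 CPM, from 14 and 28 UMIs, with 3.31 and 2.34 in the other spots. The exact 95% Poisson interval of the Myh11 level in members was 10.0 to 30.7 CPM in section 1 and 19.9 to 43.2 in section 2, and intervals here cover counting error only. Mbp read 3693 and 2627 CPM in members and 6263 and 3889 in the other spots.

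**Figure D1:**
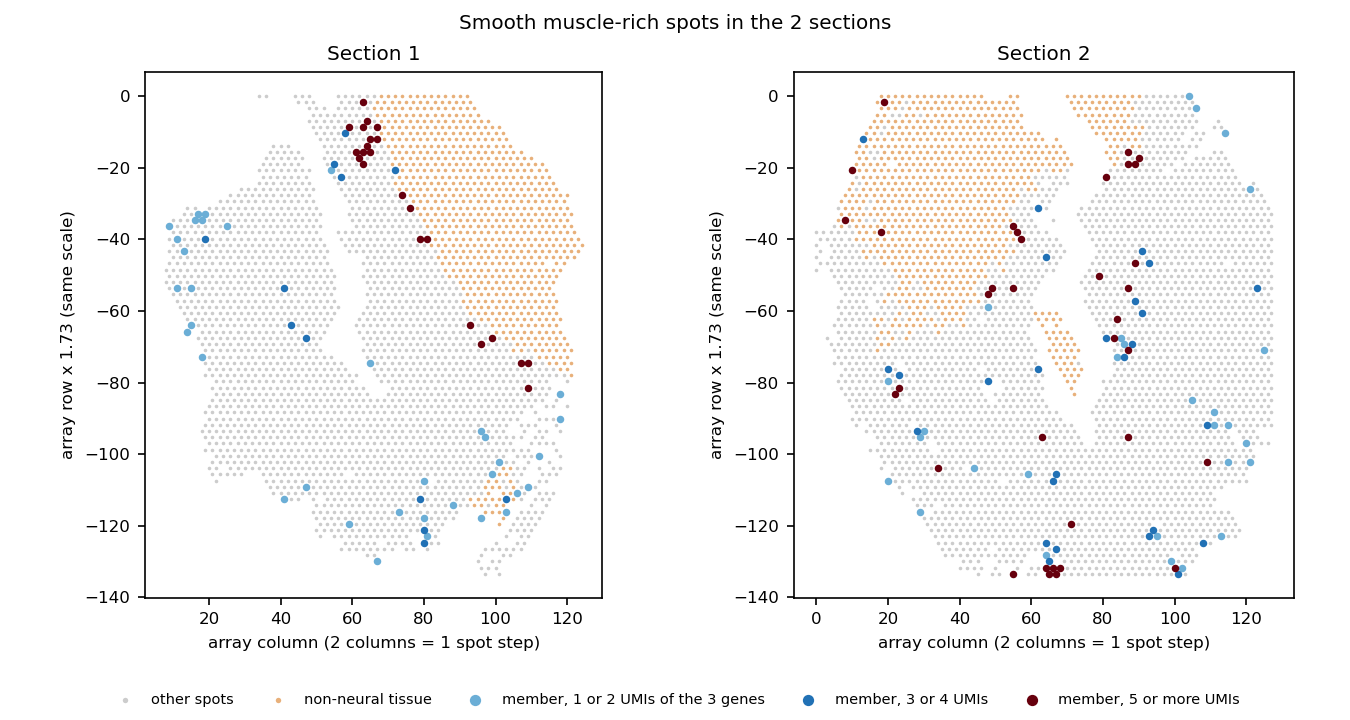
Position of the smooth muscle-rich spots in the 2 sections, in array columns and scaled array rows. Small grey points are other eligible spots, small orange points are non-neural tissue, and larger points are members coloured by the number of UMIs of Acta2, Myh11 and Tagln they hold (1 or 2 light blue, 3 or 4 blue, 5 or more dark red). Members with 5 or more UMIs gather beside non-neural tissue in section 1, where 27 of 70 members lie within 3 steps of it, and are more scattered in section 2, where 20 of 89 do.

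The members fell into 2 settings. Non-neural tissue was taken as connected runs of at least 20 spots below the brain floor, and distance was counted in spot steps. Within 3 steps of it lay 27 of 70 members (38.6%) in section 1 and 20 of 89 (22.5%) in section 2, against 9.91% and 12.4% of the other spots. These close members were deep, with a median of 17306 and 21758 UMIs, and the far ones shallow, with 5194 and 6392. Close members held 460455 of 764492 member UMIs in section 1 and 405784 of 936905 in section 2. Levels summed over all members weigh them accordingly. The share of members on the outer rim of the tissue was 8.57% and 22.5%, against 7.48% and 8.79% of other spots. On the map of member positions, 17 of 23 members with 5 or more UMIs of the 3 genes were close in section 1. In section 2 these were 15 of 35.

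The 3 genes of the rule were divided unevenly between the settings. Of the Myh11 UMIs in members, 12 of 14 and 26 of 28 came from far members, where the level was 39.5 and 49.0 CPM, while close members read 4.34 and 4.93 CPM from 2 UMIs in each section. Myh11 helped choose these spots and far members were shallow, so that 1 UMI weighs more in them, and the levels are a description. Acta2 was 302 CPM in close and 122 in far members of section 1, and 148 and 169 CPM in section 2, so its order turned between sections. Tagln was 174 and 246 CPM in close members and 286 and 264 in far ones. The background also differed: other spots close to non-neural tissue held 95.2 and 29.0 CPM of Acta2, and far ones 9.69 and 8.67. Non-neural tissue itself held Acta2 at 92.9 and 60.3 CPM and Myh11 at 1.74 and 1.40 CPM.

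**Figure D2:**
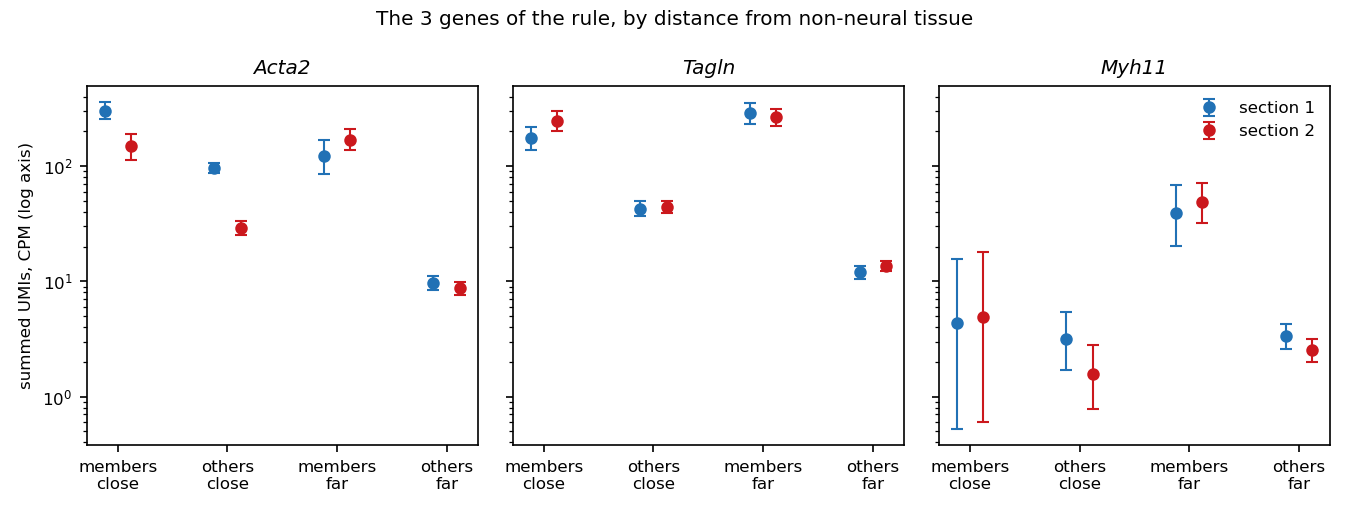
Summed level of Acta2, Tagln and Myh11 in CPM on a log axis, for members and other spots within 3 steps of non-neural tissue (close) and beyond (far), with section 1 in blue and section 2 in red. Bars are exact 95% Poisson intervals of the counts. Myh11 stands at 39.5 and 49.0 CPM in far members and at 4.34 and 4.93 in close members. The 3 genes chose the members, so the levels are descriptions.

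To compare the rest of the transcriptome, UMIs were summed over members and over other spots in each section, and edgeR's quasi-likelihood test was run with the section as a block, so n = 2 sections. Without the 5 genes of the rule, 1222 of 18928 tested genes passed an adjusted p of 0.05 (6.46%), 787 of them higher in members (4.16%) and 435 lower (2.3%). The median over all genes was -0.01 on the log2 scale. Nothing in the labels says whether the sections came from separate experiments. The block removes the level difference between sections, so p-values test the mean ratio of members to other spots. The spread behind them has 1 residual degree of freedom and is moderated across genes. A call therefore does not show that the ratio was alike in both sections. Igha passed with log2 ratios of 0.93 in section 1 and 3.41 in section 2. Without the block 64 of 18928 genes passed. When both the ranking and the comparison were confined to eligible spots over 3 steps from non-neural tissue, 12 of 18598 genes passed (0.0645%), 11 higher and 1 lower, and all 12 were among the 1222. The figure of gene lists therefore gives each group in both selections, and the text below gives most of them so.

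Of 22 contractile genes outside the rule, 7 rose and 0 fell in the full selection, with a median log2 fold change of 0.89 and 18 positive. Des, which encodes the intermediate filament desmin of muscle, read 28.8 and 25.6 CPM in members and 14.6 and 6.88 in other spots. Its log2 fold change was 1.43 (SE 0.31, adjusted p = 0.00485). Both summed values of members lay above both of the other spots. Each class has 1 summed library per section, so this order says nothing of single spots.

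Flna, the actin crosslinker filamin A, was the best measured gene of the list, at 458 and 318 CPM in members and 136 and 164 in other spots (log2 fold change 1.36, SE 0.24, adjusted p = 0.000628). Tpm2, a tropomyosin that lies along actin, read 132 and 195 CPM in members and 46.1 and 91.7 in other spots. Cald1, encoding caldesmon, read 207 CPM in members of both sections and 78.1 and 94.8 in other spots. Both rose (log2 fold changes 1.29 and 1.27). Map3k7cl, Myl9 and Smtn completed the 7. Of the genes named for this list, Des, Map3k7cl, Myl9, Smtn, Cnn1 and Pln were chosen after their values were seen.

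The genes most restricted to mature smooth muscle were scarce. Cnn1, encoding calponin, was counted 12 and 5 times in members and did not pass (log2 fold change 1.26, adjusted p = 0.133). Pln, encoding phospholamban, a brake on the calcium pump, was counted 6 and 5 times, and 6 and 4 of these UMIs lay in far members (log2 fold change 1.74, adjusted p = 0.113). In the far selection the list kept a median of 0.65, against -0.03 over all genes, with 0 of 21 genes passing and 17 positive. The values of single genes moved apart there: Flna stood at 1.11 (adjusted p = 0.0620), Des at 1.10 and Pln at 2.45, but Cald1 at 0.40 and Tpm1 at -0.01. Taken as summed levels within the far zone, the 22 genes read 977 and 843 CPM in members and 575 and 651 in other spots. Within the close zone they read 1681 and 2418 CPM in members and 1170.5 and 1830 in other spots. Close other spots thus stood above far members in both sections, so the list also varied with the zone.

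**Figure D3:**
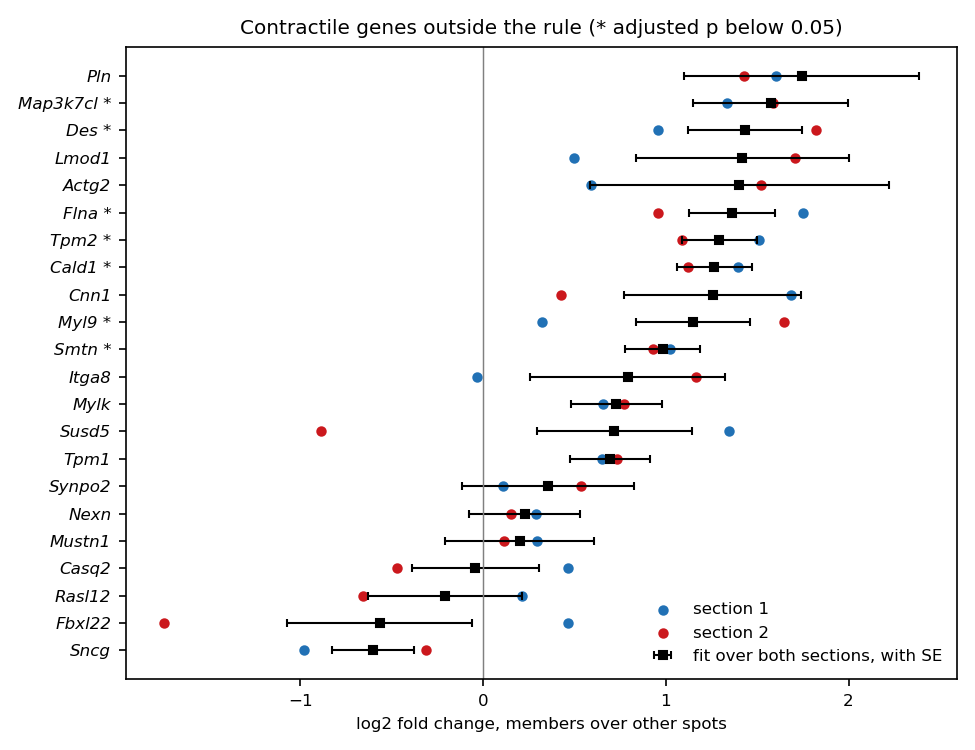
Log2 fold change of the 22 contractile genes outside the rule, members over other spots, with the ratio in section 1 (blue), in section 2 (red) and the fitted value with its standard error (black). A star marks an adjusted p below 0.05. Of the 22 genes, 18 lie above 0 in the fit and 7 pass.

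Of 10 genes of the SRF and myocardin programme, 3 rose and 0 fell, with a median of 0.61 (far selection 0.28, 0 passing). Summed, the 10 genes read 770 and 760 CPM in members and 689 and 581 in other spots (1.12-fold and 1.31-fold). Csrp1, the best measured of the list at a mean of 343 CPM over members and other spots, did not pass. Vcl, encoding vinculin, which anchors actin at the cell membrane, read 171 and 115 CPM in members and 81.7 and 72.6 in other spots (log2 fold change 0.87, SE 0.21, adjusted p = 0.00879). The other 2 that rose were Csrp2 and Tgfb1i1, named after their values were seen. Myocd itself was counted 4 and 3 times in members, too few to order.

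SRF binds the CArG box, a pair of C and a pair of G around a run of A or T. The promoters of Myl9 and Vcl are shown because each gene rose in members and each holds a strict box on the reference. Capitals mark the box in the 250 bases before the transcription start (RefSeq, GRCm38.p6, both genes on the plus strand).
Myl9, chr2:156775214-156775463: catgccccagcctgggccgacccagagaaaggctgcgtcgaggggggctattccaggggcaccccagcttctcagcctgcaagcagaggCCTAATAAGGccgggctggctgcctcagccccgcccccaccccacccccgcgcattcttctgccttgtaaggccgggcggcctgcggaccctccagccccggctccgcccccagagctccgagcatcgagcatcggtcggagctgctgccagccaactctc
Vcl, chr14:20929148-20929397: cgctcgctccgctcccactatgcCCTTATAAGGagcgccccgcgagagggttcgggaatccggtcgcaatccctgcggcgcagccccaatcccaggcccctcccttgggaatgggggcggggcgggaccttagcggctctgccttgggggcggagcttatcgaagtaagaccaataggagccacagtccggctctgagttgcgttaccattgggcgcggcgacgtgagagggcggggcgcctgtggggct
The box begins 161 bases before the start of Myl9 and 227 before that of Vcl. In a window from 250 bases before to 50 after the start, a strict box stood in 3 of 6 genes of the SRF list that had a window (Fhl2, Srf and Vcl), in 2 of 19 of the contractile list (Myl9 and Fbxl22), and in 488 of all 27025 genes (1.81%). Fhl2, Srf and Fbxl22 hold a box and were not among the genes that rose. Apart from Myl9 and Vcl, the genes that rose in either list had no box or no window. The promoters shown were picked on the rise of their genes, so they say nothing of a link between box and rise. A match is a description of letters and does not show binding.

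Notch signalling between endothelium and wall holds mural cells in their state, and 3 of its 8 listed genes rose with 0 falling (median 0.69, far selection 0.53 with 0 passing). Jag1, a Notch ligand, read 51.0 and 61.9 CPM in members and 26.02 and 24.3 in other spots (log2 fold change 1.17, adjusted p = 0.00219). Heyl, a target that answers to Notch3 in the vessel wall, read 39.2 and 20.3 CPM against 15.5 and 11.5 (log2 fold change 1.11, adjusted p = 0.0195). Its value in the far selection was larger, 1.39, without passing (adjusted p = 0.177). The third was Hes1, while Rbpj and Hey1, the 2 best measured genes of the list, did not pass. Heyl was named after its values were seen.

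Genes that set vessel tone did not move with the contractile genes in the full selection. Among 18 channels, receptors and enzymes of the cGMP pathway the median was -0.06, 0 rose, and 1 fell, the myosin phosphatase inhibitor Ppp1r14a (log2 fold change -0.73, adjusted p = 0.0494). It read 86.3 and 106 CPM in members and 191 and 135 in other spots. Summed within the far zone, the list read 908 and 1105 CPM in members and 902 and 1004 in other spots. Within the close zone it read 463 and 429 CPM against 462 and 598. Several genes of this list are also used by neurons and glia.

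Pericytes take the place of smooth muscle on capillaries. The median of 13 pericyte genes was -0.06, with 2 rising and 0 falling, and in the far selection it was 0.38, with 10 positive and 0 passing. Rgs5 read 40.6 and 67.2 CPM in members and 59.7 and 41.2 in other spots, in opposite order in the 2 sections (log2 fold change 0.14, adjusted p = 0.879). The 2 that rose were Pdgfrb and Anpep, the latter named after its values were seen, and Pdgfrb read 159 CPM in close and 32.9 in far members of section 1.

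Of 19 general and barrier genes of endothelium, 9 rose and 0 fell (median 0.50), and in the far selection 1 passed (median 0.45). Cldn5, the tight junction claudin of brain vessels, read 153 and 165 CPM in members and 84.8 and 97.1 in other spots (log2 fold change 0.81, SE 0.20, adjusted p = 0.0139). Egfl7, a secreted endothelial protein, read 116 and 184 CPM against 82.3 and 83.8 (log2 fold change 0.84). Cdh5, encoding the endothelial cadherin, read 71.9 and 84.3 CPM against 33.2 and 34.3 (log2 fold change 1.21, adjusted p = 0.000718). Cdh5 was named after its values were seen and was 1 of the 12 genes that passed in the far selection.

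The name arterial was not settled by the endothelial genes. The median of 12 genes of arterial endothelium was 0.49, with 2 rising (Fbln2 and Edn1), and that of 9 genes of venous endothelium was 0.76, with 2 rising (Vwf and Vcam1). Far selection values were 0.46 and 0.70. Edn1, the constrictor endothelin, read 36.6 and 35.2 CPM in members and 19.4 and 17.6 in other spots. Gja4, a connexin of arterial endothelium named after its values were seen, read 24.9 and 13.9 CPM against 12.8 and 6.52, and missed the threshold (log2 fold change 1.03, adjusted p = 0.0668). Vwf, encoding von Willebrand factor, read 74.6 and 150.5 CPM against 45.1 and 58.6 (log2 fold change 1.08, SE 0.21, adjusted p = 0.00178). Ackr1, a chemokine receptor listed here with venous endothelium, was lower in members, at 47.1 and 57.6 CPM against 69.5 and 100.5. It did not pass (log2 fold change -0.69, adjusted p = 0.0584), and which cells gave it was not tested. Members are therefore called smooth muscle-rich spots and not arteries. The name rests on the genes of the rule, and myofibroblasts also make Acta2 and Tagln. In close members Myh11 read 4.34 and 4.93 CPM, from 2 UMIs in each section. Genes of tumour-associated myofibroblasts summed to 3842 and 2334 CPM there, and to 2545 and 1537 CPM in close other spots. In far members Myh11 read 39.5 and 49.0 CPM. The myofibroblast genes read 1046 and 201 CPM there, and 191 and 206 CPM in far other spots. Far members of section 1 held 304037 UMIs, and 164571 when close meant within 5 steps. Much of their sum thus came from spots between 3 and 5 steps away. A group of 8 members in section 1, 1 to 5 steps away, held 433 UMIs of the myofibroblast genes and 0 of Myh11. The myofibroblast and Myh11 levels of far members there need not come from the same spots. Myh11 helped choose the spots, and 1 UMI weighs more in the shallow far members, so its levels are a description. Which cells gave the Acta2 and Tagln of members was not tested in either zone.

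Genes of the matrix of the vessel wall and its sheath rose in the full selection. Calls were fewer in the far one, as they were over all genes, where the share went from 6.46% to 0.0645%. All 12 genes of the basement membrane were positive and 8 rose (median 1.01), against 0 in the far selection (median 0.56). Col4a1, a chain of type IV collagen, read 208 and 232 CPM in members and 73.8 and 84.0 in other spots. Of 11 elastic fibre genes, 7 rose and 0 fell (median 1.36), and in the far selection 1 rose (median 0.51). Eln, elastin itself, read 92.9 and 58.7 CPM against 35.7 and 22.6 (log2 fold change 1.38, SE 0.22, adjusted p = 0.000221). It was named after its values were seen. Fbn1, the fibrillin scaffold, read 277 and 29.9 CPM against 57.9 and 10.3, far apart between sections but higher in members in each.

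Of 17 genes of perivascular and leptomeningeal fibroblasts, 13 rose and 0 fell (median 1.38), and in the far selection 4 rose (median 1.18). Summed within the far zone, the list read 3651 CPM in members and 1450 in other spots of section 1 (2.52-fold). In section 2 it read 1216 and 1013 CPM (1.20-fold). Within the close zone it read 35608 and 4424 CPM in members and 24831 and 3028 in other spots. Col1a1 read 8296 CPM in members of section 1 and 189.99 in section 2, against 1854 and 50.6 in other spots (log2 fold change 2.05, SE 0.30, adjusted p = 0.000113). Col3a1 read 3602 and 128 CPM against 713 and 23.7. The 2 sections differed in collagen level more than members differed from other spots within a section. Dcn, decorin, was more even, at 196 and 79.0 CPM against 58.9 and 23.9 (log2 fold change 1.74, adjusted p = 4.55e-06). It was named after its values were seen.

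Markers of tumour stroma, tumour and blood cells moved with these groups in the full selection. Of 11 genes of tumour-associated myofibroblasts 8 rose (median 1.54), of 11 of epithelium and myoepithelium 7 (median 0.91), of 6 of macrophages at the invading edge 4 (median 0.96), and of 10 of border-associated macrophages 4 (median 1.14), with 0 falling in each. Their part in the rise of the smooth muscle and matrix genes was not tested. In the summed levels, epithelial genes read 39.2 CPM in members of section 1 and 37.6 in its other spots, and 2043 and 975 in section 2. Myofibroblast genes read 2730 and 1125 CPM in members and 600 and 468 in other spots. No gene of any of these lists was at 0 in members of both sections.

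Postn, periostin of activated fibroblasts, read 314 and 42.7 CPM in members and 65.5 and 13.4 in other spots (log2 fold change 2.04). In the far selection its value was -0.08. Epcam, an epithelial adhesion protein, read 7.85 and 322 CPM in members and 4.58 and 151 in other spots, so its level was set by section 2. Lgals3, galectin of activated macrophages, read 1806 and 611 CPM against 736 and 363. In the far selection the medians of the epithelial and invading-edge macrophage lists were -0.11 and -0.34, those of myofibroblasts and border-associated macrophages 0.82 and 0.84, with 0 genes passing in the 4 lists.

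Among the 10 largest rises that met the naming rule were Igha and Igkc, immunoglobulin chains of plasma cells, and Hbb-bt, a beta-globin of red cells. Igkc read 52.3 and 98.2 CPM in members and 15.8 and 18.2 in other spots (log2 fold change 2.12, adjusted p = 3.46e-06), while in far members it was 13.2 and 3.77 against 10.8 and 6.42 in far other spots. Hbb-bt read 13.1 and 14.9 CPM against 2.29 and 3.85 (log2 fold change 2.18, adjusted p = 0.00276). Summed globin and other red cell genes in far members of section 1 stood at 632 CPM, with 31 in far other spots, and in section 2 at 49 and 48.5 CPM. In section 1, 204 of the 231 UMIs of these genes in members came from 1 connected group of 8 spots. The T cell, neutrophil, microglia, astrocyte, choroid plexus, skeletal muscle and Schwann cell lists had 0 genes passing. Summed astrocyte genes in the far zone read 4865 and 8879 CPM in members and 3434 and 5905 in other spots. In the close zone they read 1844 and 3443 CPM against 2558 and 5075.

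Granule cells are the densely packed small neurons of the cerebellar cortex. Of 8 granule neuron genes 7 fell and 0 rose, with a median of -1.29. Cbln1, a synapse organizer that granule cells release, read 164 and 188 CPM in members and 320 and 562 in other spots (log2 fold change -1.28, adjusted p = 0.00151). Slc17a7, their glutamate transporter, read 77.2 and 119.5 CPM against 160 and 343. The list kept a median of -1.07 in the far selection, with 1 gene passing. Of 6 Purkinje cell genes 0 passed in either direction (median -0.10), and of 5 inhibitory interneuron genes 1 fell (median -0.47). Of 7 oligodendrocyte genes 3 fell (median -0.79). Summed within the far zone, Purkinje genes read 3549 and 6147 CPM in members and 2439 and 4166 in other spots. Within the close zone they read 1257 and 360 CPM against 1432 and 1628. Far members were uneven: in section 2 a connected group of 7 spots held 1013 Purkinje UMIs, at 13418 CPM. A group of 8 far spots there read 524 CPM. Interneuron genes in the far zone read 401 and 749 CPM against 591 and 463, and oligodendrocyte genes 6285 and 5409 against 8768 and 7144. Mbp is a myelin gene and entered the rule, so these lists are not free of the selection.

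**Figure D4:**
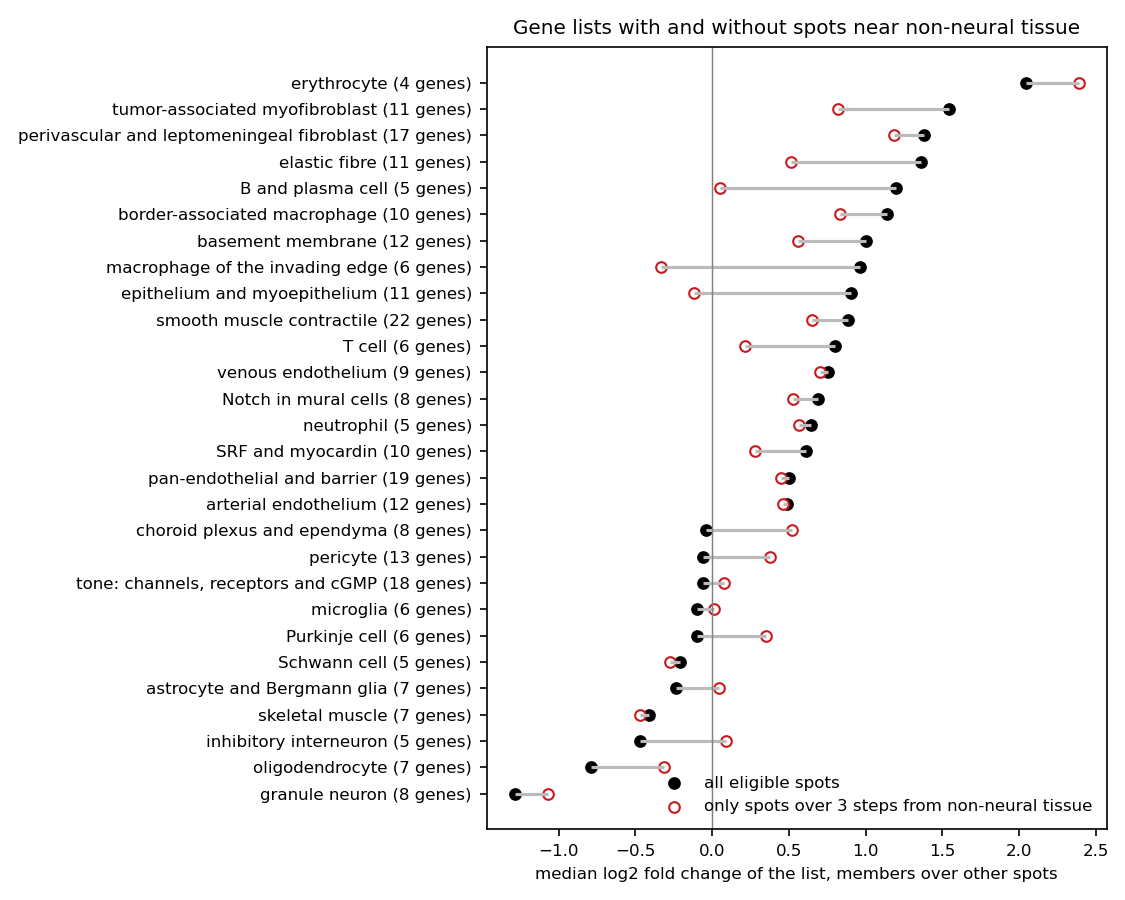
Median log2 fold change of each gene list, members over other spots, over all eligible spots (filled) and with ranking and comparison confined to spots over 3 steps from non-neural tissue (open). The number of genes tested stands beside each list. Epithelial and invading-edge macrophage lists move from 0.91 and 0.96 to -0.11 and -0.34, while the contractile list moves from 0.89 to 0.65 and granule neurons from -1.29 to -1.07.

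The 12 genes of the far selection were Mgp, Dcn, Eln, Vwf, Lrg1, Arhgef33, Cdh5, Col3a1, Col1a1, H2-Aa and Ntn1, all higher, and Cbln3, lower. Mgp, matrix Gla protein, which keeps vessel walls from calcifying, read 95.1 and 174 CPM in the 62 and 77 spots so chosen and 50.5 and 36.2 in other far spots (log2 fold change 1.63, SE 0.27, adjusted p = 0.0459). Dcn read 80.9 and 73.5 CPM against 32.7 and 21.5 (log2 fold change 1.504, adjusted p = 0.0134). Eln read 69.0 and 54.7 CPM against 25.2 and 18.2 (log2 fold change 1.48, adjusted p = 0.0308). For each, both summed values of the chosen spots lay above both of the other far spots, an order of summed libraries and not of single spots.

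Lrg1, a secreted glycoprotein of activated endothelium, read 66.6 and 155 CPM against 23.2 and 64.5 (log2 fold change 1.33, adjusted p = 0.0147). Ntn1, the guidance protein netrin, read 76.1 and 152 CPM against 41.7 and 56.6, higher in each section (log2 fold change 1.15). H2-Aa, a class II antigen-presenting chain, read 316 and 61.5 CPM against 126 and 27.9, higher in each section although the chosen spots of section 2 lay below the other spots of section 1. Cbln3, a granule cell partner of Cbln1, read 40.4 and 46.1 CPM against 67.6 and 176 (log2 fold change -1.497, adjusted p = 0.0459). In this selection 1060 genes had an unadjusted p below 0.05.

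Most members stood alone. They formed 51 connected groups in section 1 and 61 in section 2, of which 41 and 50 were single spots, and 41.4% and 43.8% of members touched another member. A member had on average 0.657 and 0.809 members among its neighbours, and another eligible spot 0.124 and 0.126. Groups of at least 3 spots numbered 3 and 7.

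The large groups differed in content. The group of 8 spots in section 1 lay 1 to 5 steps from non-neural tissue and held 65 UMIs of Tagln, 12 of Acta2 and 0 of Myh11, with Col1a1 at 3198 CPM, Arg1 at 837 CPM and Hbb-bs at 614 CPM. A group of 8 spots in section 2, 5 to 8 steps away, held 27 UMIs of Tagln, 0 of Acta2 and 1 of Myh11, with the astrocyte filament Gfap at 12436 CPM and the choroid plexus gene Ttr at 1261 CPM. A group of 7 spots in section 2, 26 to 29 steps away, held 29 UMIs of Acta2, 16 of Tagln, 3 of Myh11 and 6 of Des, with Col1a1 at 92.7 CPM and the Purkinje gene Pcp2 at 1139 CPM. Of these 3 groups only the last carried all 3 genes of the rule in more than 1 copy. Smaller groups of 4 and of 3 spots in section 1 did so too, with 3 UMIs of Myh11 in each. A group of 4 spots in section 2 did as well, also with 3. The groups of 3 spots in section 2 held 0 or 1.

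Spots that touched a member but were not members allowed a look at the surroundings. These numbered 234 and 294. Tagln read 44.4 and 54.0 CPM in them and 13.7 and 16.1 in more distant spots, and Acta2 read 78.0 and 18.6 CPM against 17.5 and 12.1. Myh11 read 4.70 and 2.79 CPM against 3.12 and 2.30. The share of touching spots within 3 steps of non-neural tissue was 29.5% and 15.99%, against 7.65% and 11.9% of distant ones. Outside the genes of the rule, 0 of 15379 genes passed in edgeR (0%), with 1681 at an unadjusted p below 0.05, and 44 passed in DESeq2.

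Members were also set beside spots richest in endothelial or fibroblast genes. Of the top 3% of all eligible spots by Cldn5, Flt1 and Slco1a4, 7 in section 1 and 6 in section 2 were members (10.0% and 6.74% of members, where 3% of all eligible spots were in this set). For Col1a1, Col1a2, Col3a1 and Dcn the shared members numbered 11 and 9 (15.7% and 10.1%). For comparison the top 3% was taken anew among the other eligible spots, without spots in both sets. This left 68 and 78 endothelial-rich and as many fibroblast-rich spots. With members taken out first, these spots lay below the members' cutoff for Acta2, Myh11 and Tagln by construction. Their levels of these 3 genes are therefore descriptions. The endothelial-rich spots held Acta2 at 14.9 and 16.1 CPM and Myh11 at 2.98 and 3.59 CPM, near the level of all other spots. Against them 22 of 11995 genes rose in members (0.183%) and 0 fell, with 1801 at an unadjusted p below 0.05. The largest rises were of matrix genes, among them Fbn1 at 277 and 29.9 CPM against 11.9 and 1.79. Col12a1 read 310 and 48.0 CPM against 20.9 and 3.59. The plasma cell chains Igkc and Igha were also among the 10 largest, Igkc at 52.3 and 98.2 CPM against 2.98 and 10.8. None of the 15 contractile genes tested passed, with a median of 0.84. Of the endothelial-rich spots 1.47% and 12.8% lay close to non-neural tissue.

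Fibroblast-rich spots lay close to non-neural tissue in 100% and 66.7% of cases and were deep, with a median of 27534 and 14836.5 UMIs. They carried Acta2 at 145 and 55.7 CPM but Myh11 at 0.994 and 2.29 CPM, from 2 and 3 UMIs. Against them 436 of 11994 genes passed (3.64%), 415 higher in members and 21 lower. All 6 Purkinje genes and 3 of 5 interneuron genes were among the rises. Mmp13 and Mmp9, collagen-cutting enzymes, led the falls, Mmp13 with 238 and 6.40 CPM in members and 843 and 32.0 in fibroblast-rich spots. The 15 contractile genes had a median of -0.38 and 0 passed.

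Close and far members differed from each other in 1995 of 9344 genes (21.4%), 919 higher and 1076 lower in close members. Postn read 515 and 96.1 CPM in close members and 9.87 and 1.88 in far ones, and Mmp12, a macrophage elastase, 449.6 and 234 against 29.6 and 5.65. Slc6a11, a GABA transporter of astrocytes, read 15.2 and 22.2 CPM in close and 359 and 324 in far members. All 6 invading-edge macrophage genes and all 4 tested epithelial genes were higher in close members. The same contrast in location exists among other spots, so members were also set against other spots of their own zone in a fit chosen after seeing the data. There, 0 of 15171 genes passed in the close zone, 0 in the far zone and 0 in the difference between zones in edgeR. Genes at an unadjusted p below 0.05 numbered 879, 886 and 559, and DESeq2 called 3, 7 and 1. DESeq2 gave no adjusted p to 14120 of the 15171 genes in the close zone and 2354 in the far zone. The 7 of the far zone were Eln, Vwf, Gdf15, Ntn1, Gfap, Lrg1 and Flna, all higher, the 3 of the close zone were Camk2b, Aldoc and Rtn1, all lower, and the 1 of the difference was Gfap, named with the rest as a count and not by the naming rule.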

How the data were processed

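The authors ran Space Ranger 2.1.1 on the mm10 genome, per the submitters' processing notes, and deposited filtered matrices of UMI counts per gene and spot with spot positions. From these counts, UMIs were summed per section and class of spots. Genes were filtered with filterByExpr, scaled with TMM factors and tested with edgeR 4.0.16 (quasi-likelihood, section as block, 2-sided, Benjamini-Hochberg adjustment, 1 residual degree of freedom for members against other spots, moderated across genes), with DESeq2 1.42.0 as an alternative. CPM are plain summed UMIs over class totals. Member libraries held 764492 and 936905 UMIs, other spots 23599934 and 35883119. In simulated counts with 18774 genes for members against other spots, 26 of 40 genes raised by 1 on the log2 scale and 40 of 40 raised by 2 were called. Of genes lowered by 1 and by 2, 23 of 40 and 36 of 40 were called, as were 6 of 18574 unchanged genes. The changed genes were drawn from those at 10 CPM or more and all genes shared 1 spread. Recovery of scarcer genes, or of genes with a larger spread, was not tested. Members and gene lists were chosen with earlier results of these data known. Named genes are the up to 4 best measured of each list, the 10 largest called changes in each direction with the same sign in both sections and at least 10 CPM, and those the text says were named after their values. Genes of the planned lists that are not in the files used here, Ly6c1 of the endothelial rule among them, were left out, and the endothelial rule used the 3 genes that remained. Other settings tried were another scaling, no filter, no block, other shares of spots, other depth and brain floors, distance from non-neural tissue, equal weight per spot and each section alone. Spots are not replicates and were never tested as such.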

Additional observations from a re-analysis of the deposited data

How the results depend on the processing

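For members against other spots, 1222 genes in the main setting became 402 with DESeq2, 64 with no replicate block, 74 for the top 1% of spots, 1854 for the top 5%, 313 with at least 3000 CPM of Mbp and Snap25, 12 in the far selection, 554 with equal weight per spot and 649 with a log2 fold change beyond 1 also required, while at least 5000 UMIs per spot gave 1208. Settings added after seeing the data gave 2357 for members with 5 or more UMIs of the 3 genes, and 0 within the far and 0 within the close zone. For touching spots, 0 became 44 with DESeq2 and 1 with no filter. Against endothelial-rich spots, 22 became 71 with DESeq2, 606 with no filter and 0 with no block. Against fibroblast-rich spots, 436 became 168, 1223 and 0 in the same order. For close against far members, 1995 became 537 with DESeq2. DESeq2 gave no adjusted p to 8442 of 18928 genes for members against other spots, so its counts cover fewer genes than those of edgeR. Genes so left out numbered 6263 for touching spots, 8376 and 3723 against endothelial-rich and fibroblast-rich spots, and 1993 for close against far members. Of 57 genes followed for members against other spots, 42 lost a call with no block, 39 for the top 1% and 34 in the far selection, and 8 changed sign, in 10 pairs of gene and setting. In the far selection the log2 fold change was -0.013 for Tpm1, -0.084 for Postn, -0.21 for Lgals3, -0.35 for Epcam and -0.12 for Krt8. With at least 3000 CPM of Mbp and Snap25 it was -0.12 for Igkc and 0.025 for Mobp. For Rgs5 it was -0.16 with at least 5000 UMIs per spot, -0.57 for members with 5 or more UMIs of the rule and -0.043 for members with 2 or more rule genes. The causes were not tested. Left alone, a section has 1 library per class and no residual degree of freedom, so each section gives a value without a test, and no leave-one-out count of calls exists. A median of 2.5 and 4 UMIs per member limits what can be said of any single spot.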
